A study of Drosophila melanogaster with 2 samples.

Results

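The Enhancer of split complex was examined as 10 genes, taken by symbol from the Ensembl annotation of the dm6 genome out of 13945 protein-coding genes on the 6 main chromosome arms. They were E(spl)mdelta-HLH, E(spl)mgamma-HLH, E(spl)mbeta-HLH, E(spl)malpha-BFM, E(spl)m2-BFM, E(spl)m3-HLH, E(spl)m4-BFM, E(spl)m5-HLH, E(spl)m7-HLH and E(spl)m8-HLH. All 10 names were found. The complex was chosen by measured values, namely the signal and rank of the deposited peaks near the start sites of these genes and in the intervals between them, in all 4 peak lists. Its promoter peaks, the peaks between its genes and their density are therefore given below as a description, and no test was made of them. Peaks came from ChIP-seq, which sequences the DNA that an antibody pulls down together with its protein. The material was whole Drosophila melanogaster embryos 0 to 12 h old from 1 transgenic line in which CG7745 carries GFP at its C-terminus. The pull-down used anti-GFP per the labels, although their field for the antibody reads CG7745. There was 1 group with 2 libraries, biological replicates 2 and 3, and no second condition. Because the embryos were whole and spanned many cell types and stages, a low signal at a gene cannot be told apart from a strong signal in few of the cells.

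The complex is a cluster of small genes that are direct targets of Notch signalling. When the Notch receptor is cleaved, its intracellular part joins the DNA-binding protein Su(H) and the coactivator mastermind at these genes and switches them on. The HLH members encode basic helix-loop-helix repressors that recruit the corepressor Groucho and hold cells back from becoming neural precursors. The BFM members encode small proteins of the Bearded family, some of which bind the ubiquitin ligase Neuralized and restrain its activation of the Notch ligand Delta.

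Of the 10 genes, 7 are of the bHLH family and 3 of the Bearded family. They lie on 3R, and each is annotated with 1 transcript, 1 exon and 1 transcription start site (TSS). The members from the first base of E(spl)mdelta-HLH to the last base of E(spl)m8-HLH span chr3R:25997621-26041008, which is 43.4 kb, and Kaz-m1 and E(spl)m6-BFM, which are not members, lie among them. CG43116 lies before the complex and gro, the gene of Groucho, after it. The windows printed next are those under the strongest summits of the 3 members whose promoters were in the reproducible set defined below, and the window of the reproducible summit nearest to E(spl)m2-BFM. Each is 101 bases of the Release 6 (dm6) plus strand, centred on the summit of the pooled list, which is in capitals. They are chr3R:25997247-25997347 before E(spl)mdelta-HLH, chr3R:26036560-26036660 before E(spl)m7-HLH, chr3R:26010702-26010802 before E(spl)malpha-BFM and chr3R:26017990-26018090 before E(spl)m2-BFM.
E(spl)mdelta-HLH: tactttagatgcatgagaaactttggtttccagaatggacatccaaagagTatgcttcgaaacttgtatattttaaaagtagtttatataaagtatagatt
E(spl)m7-HLH: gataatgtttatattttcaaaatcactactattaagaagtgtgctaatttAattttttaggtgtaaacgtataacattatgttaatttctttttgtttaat
E(spl)malpha-BFM: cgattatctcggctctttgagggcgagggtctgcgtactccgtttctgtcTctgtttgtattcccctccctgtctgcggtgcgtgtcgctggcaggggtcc
E(spl)m2-BFM: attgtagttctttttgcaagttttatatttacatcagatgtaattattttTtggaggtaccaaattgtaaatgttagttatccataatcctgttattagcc
The windows before E(spl)mdelta-HLH, E(spl)m7-HLH and E(spl)m2-BFM were rich in A and T, with G and C making up 28.7%, 19.8% and 26.7% of their bases. The window before E(spl)malpha-BFM was the reverse, at 59.4%. Over the 1861 reproducible summit windows outside the locus the median was 38.6%, and the middle of the distribution ran from 31.7% to 45.5%, so 3 of these windows lay below that range and 1 above it. Over all 13 IDR windows of the locus the median was 34.7%, with a middle range of 28.7% to 49.5%. Over the 47 pooled windows of the complex it was 47.5%, beside 42.6% for pooled windows elsewhere.

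Peaks were deposited in 4 lists, for replicate 2, for replicate 3, for both pooled, and a reproducible set of 1874 peaks that passed an irreproducible discovery rate (IDR) threshold. Each of the first 3 held 30000 peaks as deposited, so their length says nothing of the depth of sequencing, which is unknown. The 1874 IDR peaks were the 1874 strongest of the pooled list. The signal of a peak is the authors' value, its scale is not stated and it differs between lists, so peaks are compared between lists by rank, where 1 is the strongest. A gene was called bound in a list when a summit lay within 500 bp of a TSS. Distances are negative upstream of the TSS.

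In the IDR set 3 of the 10 members were bound, 2 bHLH genes and 1 Bearded-family gene, where 6.32% of all protein-coding genes were. In the pooled list 9 of 10 were bound against 46.7% of all genes, in replicate 2 the count was 9 against 44.5%, and in replicate 3 it was 9 against 46.8%. The same 9 were bound in all of these 3 lists at once, against 34.4% of all genes. Since the members were chosen with these peaks, their signals and their ranks known, nothing is read from the counts or from the ranks that follow. The median pooled rank was 2047 for the bound members beside 8466 over all bound genes. The medians were 2665 beside 9161 in replicate 2 and 2068 beside 8428.5 in replicate 3.

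E(spl)mdelta-HLH (chr3R:25997621-25998633, plus strand), which encodes a bHLH repressor, had the strongest promoter summit of the complex. Its signal was 249.9 in the pooled list (rank 373), 77.6 in replicate 2 (rank 781) and 179 in replicate 3 (rank 288). The summit lay at −324 bp in the pooled list, −318 bp in replicate 2 and −373 bp in replicate 3. It thus sat in the upper ranks of both libraries, 781 and 288 of nearly 30000, at positions within 100 bp of each other. The peak fell in the 624 bp between E(spl)mdelta-HLH and CG43116, which is transcribed away from it, and was at −301 bp from the TSS of CG43116, so it cannot be assigned to either gene.

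E(spl)m7-HLH (chr3R:26037038-26038019, plus strand), also a bHLH repressor gene, was the next. Its summit signal was 238 in the pooled list (rank 437), 68.0 in replicate 2 (rank 1079) and 168 in replicate 3 (rank 332). The summit lay at −428 bp, −418 bp and −340 bp in these lists. As at E(spl)mdelta-HLH, the rank was higher in replicate 3 than in replicate 2 and the summit lay farther upstream than the median bound gene of the IDR set, which had its summit at −105 bp. E(spl)malpha-BFM (chr3R:26010893-26011568, plus strand), the Bearded-family gene of the 3, had a pooled signal of 131 (rank 1587), 50.2 in replicate 2 (rank 2247) and 93.0 in replicate 3 (rank 1302). Its summits were closer to the TSS, at −141 bp, −179 bp and −129 bp.

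The next 3 bHLH genes fell below the end of the IDR set, whose weakest peak had a signal of 122. E(spl)mbeta-HLH (chr3R:26005046-26006023, minus strand) was just outside it with a signal of 119 (pooled rank 1971), and had 54.5 in replicate 2 (rank 1867) and 75.4 in replicate 3 (rank 2060). E(spl)m3-HLH (chr3R:26021823-26023127, plus strand) had a pooled signal of 117 (rank 2047), 46.9 in replicate 2 (rank 2665) and 75.3 in replicate 3 (rank 2068). In the pooled list both summits thus lay within a few units of signal of the weakest IDR peak. E(spl)m8-HLH (chr3R:26040240-26041008, plus strand), the gene mutated in the classical Enhancer of split allele, had a pooled signal of 104 (rank 2651), 44.5 in replicate 2 (rank 3019) and 49.95 in replicate 3 (rank 5175).

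The other 3 promoter summits were weak, and the replicates placed them differently. E(spl)mgamma-HLH (chr3R:25999851-26000761, plus strand) had a pooled signal of 45.4 (rank 14353), 24.2 in replicate 2 (rank 11872) and 37.8 in replicate 3 (rank 9349). E(spl)m5-HLH (chr3R:26028854-26029735, minus strand) had 45.3 pooled (rank 14407), 27.5 in replicate 2 (rank 9126) and 20.9 in replicate 3 (rank 26141). E(spl)m4-BFM (chr3R:26023821-26024579, minus strand) had 43.9 pooled (rank 15268), 14.4 in replicate 2 (rank 28076) and 39.7 in replicate 3 (rank 8469). These 3 genes took the lowest places in each list, but in a different order each time. The summit of E(spl)mgamma-HLH was at −133 bp in replicate 3 and at 176 bp, inside the gene, in replicate 2. That of E(spl)m5-HLH was at −157 bp in replicate 3 and at 135 bp in replicate 2, and neither was within 100 bp of the pooled summit at −44 bp. For 7 of the 9 members with a pooled promoter summit, both replicates had a summit within 100 bp of it.

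**Figure D1:**
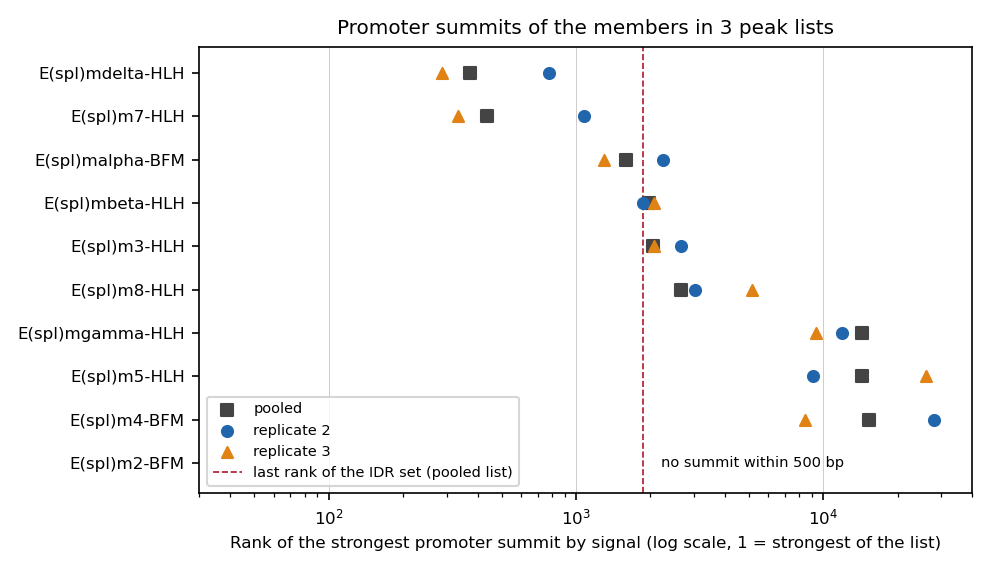
Rank of the strongest summit within 500 bp of the TSS of each member (horizontal, log scale, 1 = strongest) in the pooled list (squares), replicate 2 (circles) and replicate 3 (triangles). The dashed line is the last rank of the IDR set. The upper 6 members stay at rank 5175 or stronger in every list, and the 3 below them at rank 8469 or weaker.

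Ordered by pooled rank, E(spl)mdelta-HLH and E(spl)m7-HLH came first and in that order in both replicates. E(spl)malpha-BFM and E(spl)mbeta-HLH changed places between the replicates, as E(spl)malpha-BFM ranked 2247 and 1302 and E(spl)mbeta-HLH 1867 and 2060 in replicates 2 and 3. E(spl)m3-HLH and E(spl)m8-HLH followed in both. With 1 value per library, neighbours in this order that change places are not separated by these data.

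E(spl)m2-BFM (chr3R:26016514-26017470, minus strand) was the member with no summit within 500 bp in any list. Its nearest summit upstream was just outside that distance, at −570 bp in the pooled list and −581 bp and −569 bp in replicates 2 and 3. That summit, in the noncoding gene lncRNA:CR43643, was in the IDR set, with a pooled signal of 172 (rank 889), 71.3 in replicate 2 (rank 953) and 113 in replicate 3 (rank 832). The position of the summit of E(spl)m7-HLH at −428 bp, just inside the limit, and that of E(spl)m2-BFM just outside it differed by less than the width of the latter peak, 396 bp. Within 1000 bp, 5 members were bound in the IDR set where 7.85% of all genes were, the added ones being E(spl)m2-BFM and E(spl)m4-BFM. The limit of 500 bp thus decided the call at E(spl)m2-BFM, and the summit added at E(spl)m4-BFM lay downstream of the TSS.

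The strongest promoter summit was upstream of the TSS for 9 of 9 bound members in the pooled list, where it was for 63.4% of all bound genes. It was upstream for 7 of 9 in replicate 2 and 9 of 9 in replicate 3. The pooled distances of the members ran from −428 to −44 bp with a median of −133 bp, beside −57 bp over all bound genes. In the pooled list, secondary summits within 500 bp were present at E(spl)mbeta-HLH, at −330 bp with a rank of 11697, and at E(spl)m3-HLH, at −95 bp with a rank of 21954. Replicate 2 also had them at E(spl)m7-HLH, at −84 bp (rank 5646), and at E(spl)mdelta-HLH, at 277 bp (rank 22789). Replicate 3 also had one at E(spl)m8-HLH, at 443 bp (rank 20329).

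**Figure D2:**
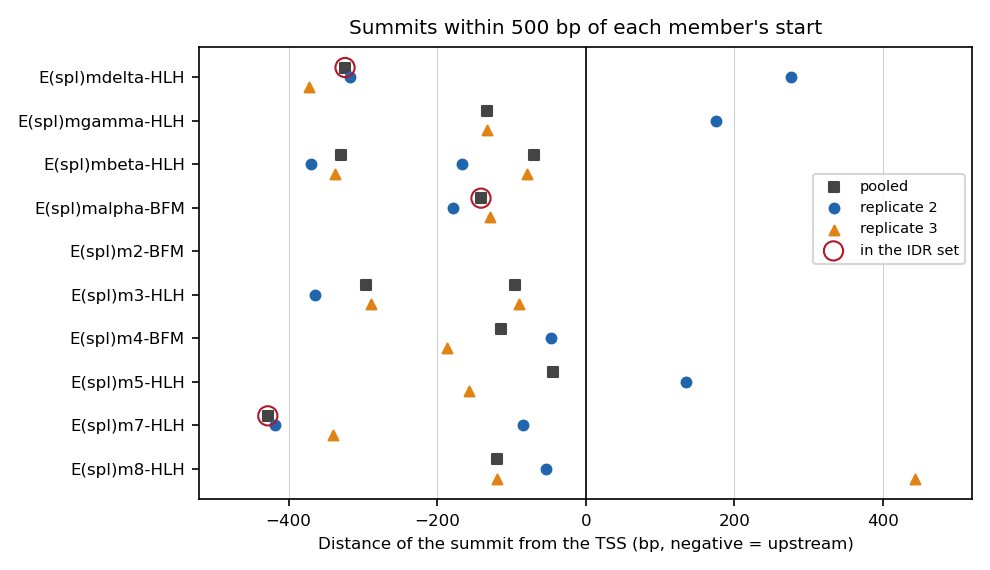
Distance of every summit within 500 bp of a member's TSS (horizontal, bp, negative upstream) in the pooled list and both replicates, with IDR summits ringed. In the pooled list all points lie upstream, and the ringed ones of E(spl)mdelta-HLH and E(spl)m7-HLH lie at −324 and −428 bp.

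Summits were then counted over the whole complex, whose intervals were also part of the choice. Between the first and last base of the members lay 9 IDR summits, 47 pooled summits, 43 summits of replicate 2 and 51 of replicate 3. The promoter summit of E(spl)mdelta-HLH lies before this span and is not counted. In the pooled list this was 1.08 summits per kb, beside 0.224 over the 6 arms, a ratio of 4.83. In the IDR set the ratio was 14.8, and in replicates 2 and 3 it was 4.42 and 5.24. Cutting the rest of the arms into 3080 tiles of the same length, 7 tiles (0.227%) had at least as many pooled summits and 1 tile had at least as many IDR summits, while the median tile had 7 pooled summits and 0 IDR summits. The densest pooled tiles included those at the transcription factor gene noc, the nuclear receptor gene Eip75B and the axon guidance gene sli. Some summits of the complex were neighbours under overlapping peaks, with 8 of the 46 steps between adjacent pooled summits at 250 bp or less. Merging overlapping peaks left 36 regions in the complex and a ratio of 4.36. Peaks of the pooled list covered 37.6% of the complex and 8.22% of the arms.

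**Figure D3:**
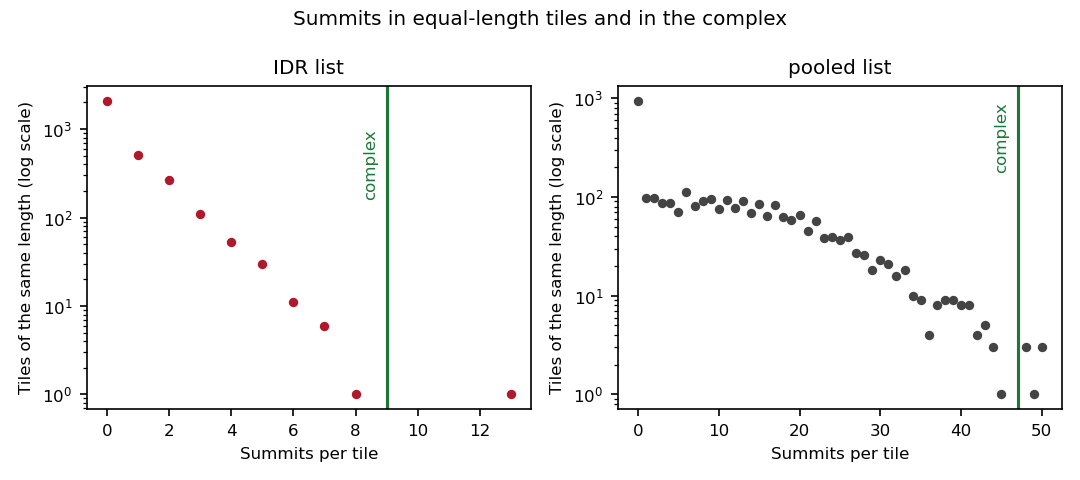
Number of tiles as long as the complex (vertical, log scale) that hold a given number of summits (horizontal), for the IDR set and the pooled list, with the complex as a line. The line stands at 9 IDR summits and 47 pooled summits, near the upper end of both distributions.

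By position, 43 of the 47 pooled summits (91.5%) were outside protein-coding genes, which leave 72% of the span free. In coding sequence, which made up 14.3% of the span, lay 1 pooled summit, inside E(spl)m7-HLH. The same shares over all pooled summits are not given here, so these positions are not read as particular to the complex. The replicates had 3 of 43 and 2 of 51 summits in coding sequence. Within 500 bp of a member's TSS were 10 of the 47 pooled summits, in windows that covered 21.9% of the span, so the share of summits there was close to the share of the length.

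**Figure D4:**
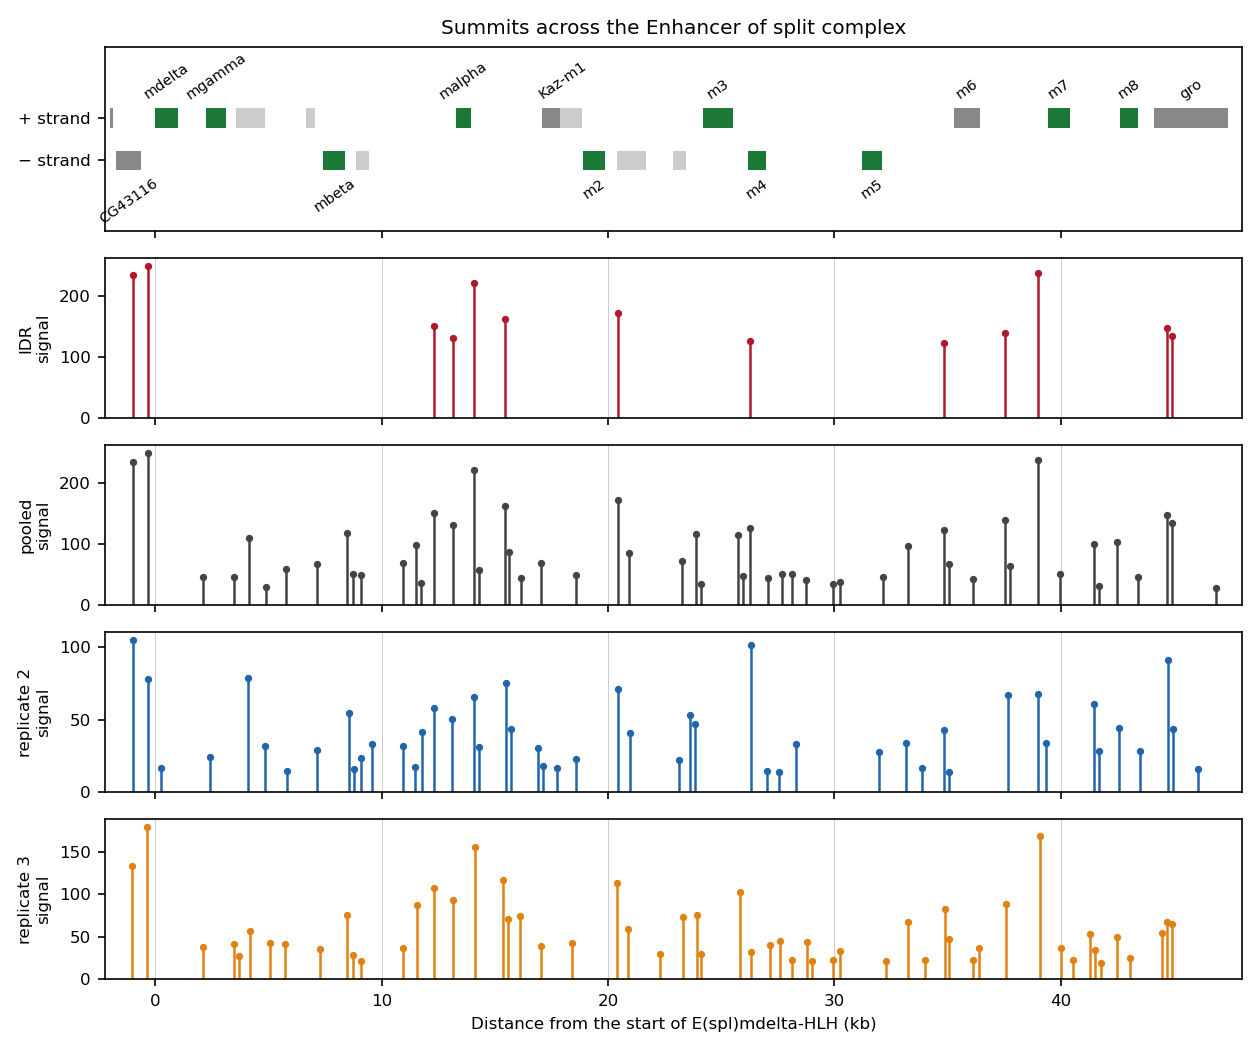
Summits across the complex, by distance from the start of E(spl)mdelta-HLH (kb) and signal, with 1 panel per list and genes above (green for members, dark grey for other coding genes, pale grey for noncoding genes, strands apart). Signal scales differ between panels. The tallest promoter summits stand at both ends, before mdelta and before m7. IDR summits are absent from several intervals, the longest being those between mgamma and mbeta and between m4 and m5.

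The strongest pooled summit between the members and away from any promoter was at 26011711, past the end of E(spl)malpha-BFM and 818 bp from its TSS. Its pooled signal was 222 (rank 505), with 65.4 in replicate 2 (rank 1196) and 156 in replicate 3 (rank 395). It ranked below the promoter summits of E(spl)mdelta-HLH and E(spl)m7-HLH in the pooled list and in both replicates. In replicate 2 other summits away from the promoters were stronger, the first at rank 377 in the 3′ UTR of E(spl)m4-BFM and the next at rank 750 between E(spl)mgamma-HLH and E(spl)mbeta-HLH. The same interval, 3152 bp from E(spl)malpha-BFM to Kaz-m1, held a further IDR summit at 26013057, with a signal of 162 (rank 1008) and ranks of 838 and 777 in replicates 2 and 3. On the other side of E(spl)malpha-BFM an IDR summit at −959 bp had a signal of 150 (rank 1183) and ranks of 1615 and 934. Counting its promoter, E(spl)malpha-BFM was thus flanked by 4 IDR summits, 2 in each neighbouring interval.

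The interval of 2990 bp between E(spl)m6-BFM and E(spl)m7-HLH held, beside the promoter summit of E(spl)m7-HLH, an IDR summit at −1885 bp with a signal of 139.9 (rank 1388). Replicate 3 had it at rank 1451, and replicate 2 had a summit of rank 1132 that lay 147 bp away. The interval of 4274 bp between E(spl)m4-BFM and E(spl)m5-HLH held 6 pooled summits but 0 of the IDR set, and its best rank was 11317, with best ranks of 5947 in replicate 2 and 6543 in replicate 3. Between E(spl)mgamma-HLH and E(spl)mbeta-HLH, 4284 bp held 5 pooled summits and 0 IDR summits, the best at rank 2333 in the noncoding gene lncRNA:CR45037, with ranks of 750 in replicate 2 and 4005 in replicate 3. The strongest pooled summit of these intervals thus differed widely, from rank 437 before E(spl)m7-HLH to rank 11317 between E(spl)m4-BFM and E(spl)m5-HLH. Between E(spl)mdelta-HLH and E(spl)mgamma-HLH, 1217 bp held 1 pooled summit, at rank 14353, and 0 IDR summits.

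In the pooled list and replicate 2, E(spl)m4-BFM had its strongest summit in its 3′ UTR, at 26023913 in the pooled list, and the libraries were far apart there. Its signal was 126 in the pooled list (rank 1737), 101 in replicate 2 (rank 377) and 32.1 in replicate 3 (rank 12829). Replicate 2 thus had it among its strongest summits and replicate 3 at a signal not far above the median of its list, 29.5, although the summit was in the IDR set. In replicate 3 the promoter summit of the gene, with a signal of 39.7, was the stronger of the pair. The nearest strong summit of replicate 3, rank 1040, was outside the gene, in the interval between E(spl)m3-HLH and E(spl)m4-BFM. In replicate 3 alone the summit in the 3′ UTR lay outside the upper 1874.

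Both replicates had a summit within 100 bp of 23 of the 47 pooled summits of the complex (48.9%), where the share over the whole pooled list was 33%. These summits were part of the choice and some of their peaks overlap, so no interval or test is given for this share. Summits were also denser in the complex, at 0.991 per kb in replicate 2 and 1.18 in replicate 3, beside 0.224 over the arms. How far this density alone raises the share of matches was not tested. Of the 9 IDR summits of the complex, 8 were matched in both replicates (88.9%) beside 94.1% of the whole IDR set. Over the 23 matched summits, Spearman's rho between the signals of the replicates was 0.48, beside 0.56 over the 9890 matched summits of the pooled list. All of these points share 2 libraries and 1 control alignment.

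**Figure D5:**
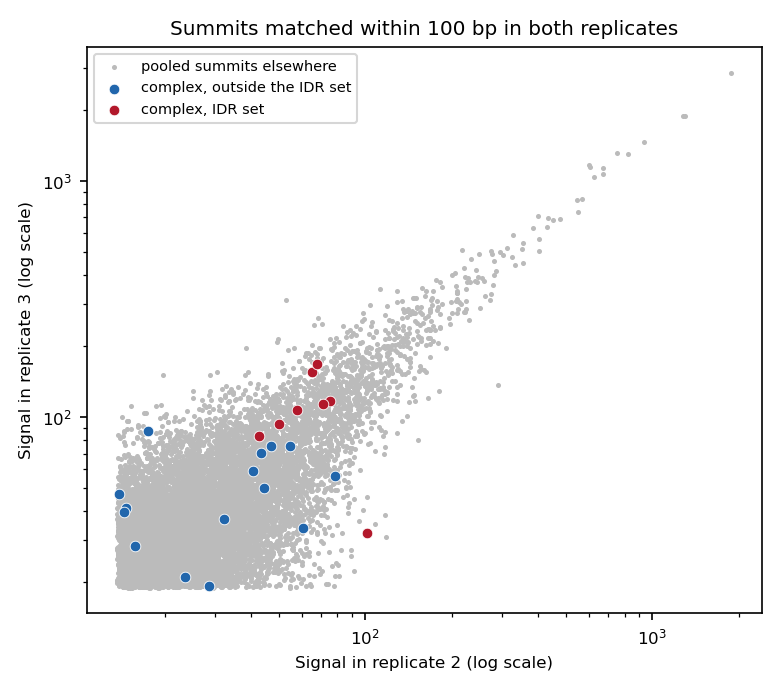
Signal in replicate 2 (horizontal) and replicate 3 (vertical), both on log scales, for pooled summits matched within 100 bp in both replicates. Coloured points are the 23 summits between the first and last base of the members, red for the IDR set. The red point at the lower right, with a signal of 101 in replicate 2 and 32.1 in replicate 3, is the summit in the 3′ UTR of E(spl)m4-BFM.

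Of the genes around the members, CG43116, E(spl)m6-BFM and gro were bound in the IDR set, and Kaz-m1 and Nf1 were not. At CG43116 an intronic summit had a signal of 235 (rank 448), with ranks of 345 and 567 in replicates 2 and 3, beside the summit it shares with E(spl)mdelta-HLH. E(spl)m6-BFM, the Bearded-family gene of the locus that is not among the 10, was bound in the IDR set at −433 bp with a signal of 122 (rank 1850). At gro an intronic summit had a signal of 147 (rank 1236), with ranks of 500 in replicate 2 and 2641 in replicate 3. Kaz-m1, which encodes a protease inhibitor of the Kazal type, had a pooled rank of 6458. Nf1, the neurofibromin gene on the far side of CG43116, had a pooled rank of 15564 and a rank of 25953 in replicate 3, and no summit within 500 bp in replicate 2.

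Of 49 other genes of the locus, of the Notch pathway and of the related bHLH and Bearded families, 9 (18.4%) were bound in the IDR set and 39 (79.6%) in the pooled list, beside 3 and 9 of the 10 members. Over all protein-coding genes the shares were 6.32% in the IDR set and 46.7% in the pooled list, also for the single lists below. These lists were chosen with earlier results of these data known, so their counts are a description. Among 4 Bearded-family genes outside the complex (Brd, Tom, Ocho and BobA), 4 were bound in the pooled list and 0 in the IDR set. Of 6 bHLH genes related to hairy, hry alone was in the IDR set, with a signal of 124 (rank 1801). It encodes a repressor of the same type as the HLH members.

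In the signalling part of the pathway, the ligand gene Delta was bound in the IDR set with a signal of 173 (rank 875), while the receptor gene N and the ligand gene Ser were outside the IDR set, at pooled ranks 2754 and 3074. In replicates 2 and 3 N ranked 2030 and 6339, and Ser 3276 and 4073. Of 7 nuclear factors, the coactivator gene mam was bound in the IDR set at a signal of 163 (rank 999). Su(H) had no summit within 500 bp in the pooled list or replicate 3, while replicate 2 had a summit at 54 bp (rank 16747). Of 17 genes for processing and trafficking, 3 were in the IDR set. They were numb, an inhibitor of Notch in asymmetric division, with a signal of 326 (rank 201), neur, the ubiquitin ligase bound by Bearded proteins, with 198 (rank 657), and fng, a glycosyltransferase that modifies Notch, with 127 (rank 1689). Of 9 proneural genes and partners, the HLH inhibitor gene emc was in the IDR set at 178 (rank 831). Of the achaete-scute genes, ac, sc and ase had pooled ranks of 21297, 13146 and 25425, and l(1)sc had no pooled summit within 500 bp. The replicates did not keep an order between these genes and the weak members. In replicate 2, ac and ase ranked 26213 and 21725, above E(spl)m4-BFM at 28076, and sc had no summit within 500 bp. In replicate 3, sc and l(1)sc ranked 8936 and 5011, and ac and ase 21958 and 27369.

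Across 4800 genes bound in the pooled list and both replicates, the promoter summits most like that of E(spl)mdelta-HLH in rank were those of CG4338, Cp190 and Gapdh2. CG4338 and Cp190, an insulator protein gene, share 1 peak at ranks 365, 717 and 268 in the pooled list, replicate 2 and replicate 3. Their largest difference from E(spl)mdelta-HLH over the 3 lists was 0.12 on the log2 scale of rank. Gapdh2, a glycolytic enzyme gene, had ranks 326, 769 and 324 and a largest difference of 0.19.

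Promoter sequences, from 250 bp before to 50 bp after the TSS, were searched on both strands for 10 motifs. The Su(H) word was CGTGGGAA, CGTGAGAA, TGTGGGAA or TGTGAGAA. It was found in 3 of the 10 members, E(spl)m4-BFM, E(spl)m5-HLH and E(spl)m8-HLH, and in 3.2% of 19597 other promoters. The 250 bases before the TSS of these 3 members are printed because they hold those words, on the strand of the gene and ending at the base before the TSS, in the Release 6 (dm6) genome. They are chr3R:26039990-26040239 (plus strand), chr3R:26029736-26029985 (minus strand) and chr3R:26024580-26024829 (minus strand), with Su(H) words and the TATA word TATAAA in capitals.
E(spl)m8-HLH: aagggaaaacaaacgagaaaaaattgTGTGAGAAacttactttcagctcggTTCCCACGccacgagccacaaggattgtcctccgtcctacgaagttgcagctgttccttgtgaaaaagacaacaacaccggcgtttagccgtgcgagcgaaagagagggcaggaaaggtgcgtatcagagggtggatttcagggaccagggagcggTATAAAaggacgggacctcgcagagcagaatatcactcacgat
E(spl)m5-HLH: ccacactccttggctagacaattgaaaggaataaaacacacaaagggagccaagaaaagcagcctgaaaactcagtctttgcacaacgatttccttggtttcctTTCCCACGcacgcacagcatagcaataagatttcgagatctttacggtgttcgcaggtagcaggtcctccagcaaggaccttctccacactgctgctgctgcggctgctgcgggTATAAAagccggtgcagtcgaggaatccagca
E(spl)m4-BFM: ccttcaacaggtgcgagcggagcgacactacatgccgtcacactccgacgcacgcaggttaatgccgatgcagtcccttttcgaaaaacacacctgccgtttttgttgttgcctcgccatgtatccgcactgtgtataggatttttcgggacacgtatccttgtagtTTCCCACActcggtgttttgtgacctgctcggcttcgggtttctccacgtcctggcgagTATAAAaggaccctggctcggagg
E(spl)m8-HLH held a pair of Su(H) words facing each other, TGTGAGAA from −224 to −217 and TTCCCACG, which is read on the other strand, from −199 to −192. Its pooled summit was at −119 bp and those of replicates 2 and 3 at −53 and −120 bp. E(spl)m5-HLH held TTCCCACG from −146 to −139, with its pooled summit at −44 bp, and E(spl)m4-BFM held TTCCCACA from −83 to −76, with its pooled summit at −114 bp. None of these 3 members was among the 3 bound in the IDR set within 500 bp, and E(spl)m4-BFM was bound within 1000 bp. Over all protein-coding genes, 6.32% were bound in the IDR set within 500 bp. The bound share of other promoters with a Su(H) word is not given here, so nothing is read from this.

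The TATA word TATAAA, searched on both strands, was in 8 of the 10 member promoters and in 42.1% of the others. Read on the strand of the gene, it started 40 to 20 bp before the TSS in 7 members and in 6.77% of other promoters, a window chosen after the positions were seen. At E(spl)m8-HLH it began at −43 bp, and E(spl)mdelta-HLH and E(spl)mgamma-HLH had no match. GAGAG was in 7 members and 33.1% of other promoters, and the N-box CACNAG, to which HLH members are known to bind, in 5 and 30.4%. The general E-box CANNTG was in 6 members and 77.8% of other promoters. CACGTG, which like CAGCTG is also a CANNTG, was in E(spl)mdelta-HLH and E(spl)m7-HLH and in 4% of the others, and CAGCTG in E(spl)m8-HLH and 17.9%. The Zelda word CAGGTAG was in E(spl)m5-HLH and 1.7% of the others, and the words TATCGATA (DRE) and CACGCG were in 0 members, beside 7.99% and 7.28%.

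In windows of 101 bp around the summits, the Su(H) word was found at 0 of 13 IDR summits of the locus widened by 2000 bp on each side, beside 0.86% of the other IDR windows. It was found at 2 of the 47 pooled summits of the complex, beside 0.968% elsewhere. The first was the promoter summit of E(spl)m4-BFM and the other the secondary summit of E(spl)mbeta-HLH at −330 bp. CANNTG was in 7 of the 13 IDR windows and 39.1% of the others, and GAGAG in 1 of 13 and 17.2%. The 5 words of 6 bases most frequent at IDR summits outside the locus, relative to sequence 500 bp away, were then looked up. TAATTA led them, in 17.8% of the summit windows and 7.23% of the flanking ones. The word GTAAAC was in 9.62% and 4.33%. Next were GAGCGA with 8.60% and 3.92%, then AATTAA with 32% and 15.3%, and last AGAGCG with 7.85% and 3.79%. At least 1 of them was in 5 of the 13 IDR windows of the locus (38.5%) and in 50.3% of the other IDR windows. In the pooled list the shares were 31.9% in the complex and 31.9% elsewhere.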

How the data were processed

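ChIP-seq peaks of 2 libraries were used as deposited. Per the file lists deposited with the samples, peaks were called on each replicate and on both pooled against 1 control alignment on dm6, and the IDR set was made from these lists. Aligner and caller names, versions and the IDR cut-off were not given in the sources used here. For each peak the authors deposited a signal with no stated scale, and the deposited −log10 q value ran to 3.56 in the pooled list with many ties, so peaks were ranked by signal. Mitochondrial peaks (19 in replicate 2) were dropped. Since both replicates share a control, a region that deviates there could affect both lists, which was not tested. Read depth is unknown.

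Genes came from Ensembl release 115 and sequences from the RefSeq Release 6 genome, which gave the same coordinates for 10 of 10 members. Summits were matched within 100 bp and motifs searched within 50 bp of a summit. BobB and BobC, of the listed Bearded genes, had no match. The members, lists, motifs and alternatives were chosen with earlier results of these data known. Named are all members, listed genes in the IDR set, flanking genes and the 3 genes most like the strongest member; further genes are named after their values were seen, to complete a count. No group comparison or test was possible with 1 group. Alternatives were other TSS windows, matching distances and motif windows, the most upstream TSS, peak intervals in place of summits, the upper 50% of the IDR set, a widened span, each replicate alone and merged peaks. The code was tested on simulated data. The tools were matplotlib 3.10.9, SciPy 1.17.1, NumPy 2.4.6 and pandas 2.3.3 under Python 3.11.15.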

Additional observations from a re-analysis of the deposited data

How the results depend on the processing

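The count of members bound in the IDR set, 3, was 1 with a TSS window of 250 bp, where E(spl)malpha-BFM alone was left, and 5 with 1000 bp. It was 4 by any base of the peak, which added E(spl)m2-BFM, 2 in the upper 50% of the IDR set and 3 by the most upstream TSS. The share of all protein-coding genes moved too, from 6.32% to 5.18% with 250 bp and 7.85% with 1000 bp. It was 6.88% by any base of the peak and 3.24% in the upper 50%. Taking the same number of strongest peaks from either replicate alone gave 3 members in each. The share of all genes was then 6.23% in replicate 2 and 6.53% in replicate 3. Replicate 2 had E(spl)mbeta-HLH and replicate 3 had E(spl)malpha-BFM, beside E(spl)mdelta-HLH and E(spl)m7-HLH in each. These lists gave 10 to 10 summits in the complex (9 in the IDR set) and 9 to 10 bound genes of the 49 in the other lists. Summits shared by both replicates, 23 at 100 bp, numbered 13 at 50 bp and 35 at 200 bp, and leaving out a replicate gives no value for them. Pooled summits with a Su(H) word, 2 within 50 bp, numbered 0 within 30 bp and 5 within 100 bp. The cause of these changes is the width of the window by construction. The span widened by 2000 bp on each side held 13 IDR summits, and merging overlapping peaks left 36 of 47 pooled regions. The merged peaks, the single-replicate values for summits and other lists, and the 6-base words were added after the data were seen. No paired analysis was possible because the samples form 1 group. With 2 libraries and unknown depth, the spread of a rank between libraries is known from 1 pair of values only.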
